A study of Mus musculus with 8 samples.

Results

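The genes described here are the hypoxia-inducible factor subunits Hif1a and Arnt, the oxygen-sensing hydroxylases Egln1, Egln2, Egln3, and Hif1an, the ubiquitin ligase subunit Vhl, and Bnip3, a mitophagy receptor gene activated by the factor. They were chosen by name for these roles, with earlier results of these data known. These are 8 of the 29924 gene names on the array, and all 8 were among the 15764 genes tested, since the probe representing each of them was well above background on all 8 arrays. The data come from CD4 T cells sorted from the peripheral lymph nodes (pLN) of B6.Cg-Foxp3<tm1Mal> mice, whose Foxp3 expressing cells carry EGFP, after s.c. immunization with keyhole limpet hemocyanin and alum. All groups share this strain and this immunization. Cells were collected at d12 or d25 p.i. from mice of both sexes aged 8 to 14 weeks, in pools of 8 to 15 mice per sample, with 25 ng of RNA per array. Naïve CD4 T cells were GFP-PD1loGL7-, Treg cells GFP+PD1loGL7-, follicular helper T (TFH) cells GFP-PD1hiGL7+, and follicular regulatory T (TFR) cells GFP+PD1hi with or without GL7. The naïve gate thus rests on the absence of these markers. The arrays analysed here comprise 1 per cell type and day, that is 2 per cell type and no replicate of a cell type within a day. The methods state more samples per cell type for both d12 and d25, and the further ones were not analysed here. P-values therefore measure the spread between these arrays.

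The hypoxia-inducible factor (HIF) is a heterodimer of an oxygen-labile alpha subunit and the stable beta subunit ARNT. When oxygen is available, prolyl hydroxylases encoded by Egln1, Egln2, and Egln3 mark the alpha subunit for the VHL ubiquitin ligase, which leads to its degradation, and the asparaginyl hydroxylase encoded by Hif1an blocks its transcriptional activity. Stabilized HIF binds to a short core motif near genes of glycolysis, oxygen delivery, and mitophagy, and Egln3 and Bnip3 are themselves known targets. In T cells, HIF1A is known to promote glycolysis, and germinal centers contain regions poor in oxygen. The arrays measure mRNA, whereas the amount of HIF1A protein is set largely by its degradation.

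On the arrays, 18261 to 19867 of 39429 probes were well above background. All levels are given as normalized gPS in relative units (RU), which can be compared between arrays for 1 probe but not between probes. Foxp3 was at 37266 to 49262 RU on the Treg and TFR arrays and at 66 to 358 RU on the others, whereas Cxcr5 was at 35322 to 237465 RU on the TFH and TFR arrays and at 1400 to 4384 RU on the others. The summed level of 8 B cell markers ranged from 1721 to 12889 RU, was highest on the TFH array of d25 and lowest on the TFH array of d12, and the B cell factor gene Pax5 stayed below that threshold on all arrays. Summed over 8 genes, myeloid markers ranged from 48390 to 64971 RU, with Cd14 and Adgre1 below it on all arrays, and 4 of the 5 tested ones were called in TFH compared to naïve cells, Cd68 (2.98) and Cst3 (0.43) higher and Csf1r (-0.38) and Itgam (-0.51) lower on the log2 scale. For TFR against Treg cells Cd68 alone was called (2.76). The sum of the CD8 T cell markers Cd8a and Cd8b1 was 2110 to 3174 RU on the TFH and TFR arrays and 4208 to 5118 RU on the others, with Cd8b1 called lower in both follicular cell types and Cd8a in TFR cells. The part of these markers in the differences between cell types was not tested. Bulk arrays cannot distinguish fewer expressing cells from less RNA per cell.

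Since HIF binds to DNA, the promoters of the genes that changed most are shown with matches to its core motif. Matched by symbol, all 8 genes had an entry in the RefSeq promoter set of the assembly GRCm38.p6, with 9 promoters in total. The 250 bases before each annotated start were searched on both strands for ACGTG and GCGTG, and a match is in capitals, as CACGT or CACGC where it lies on the opposite strand. Such a match was present in 38.6% of 32851 mouse promoters, so that its presence alone is common. The promoters of Hif1a (chr12:73907617-73907866, plus strand), Egln3 (chr12:54203875-54204124, minus strand), and Egln1 (chr8:124949255-124949504, minus strand) read 5′ to 3′ toward the start:
Hif1a: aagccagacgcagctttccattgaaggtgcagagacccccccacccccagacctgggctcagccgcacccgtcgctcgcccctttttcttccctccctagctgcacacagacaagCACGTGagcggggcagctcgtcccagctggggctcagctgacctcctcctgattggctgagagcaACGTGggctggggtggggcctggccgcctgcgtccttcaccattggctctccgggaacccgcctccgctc
Egln3: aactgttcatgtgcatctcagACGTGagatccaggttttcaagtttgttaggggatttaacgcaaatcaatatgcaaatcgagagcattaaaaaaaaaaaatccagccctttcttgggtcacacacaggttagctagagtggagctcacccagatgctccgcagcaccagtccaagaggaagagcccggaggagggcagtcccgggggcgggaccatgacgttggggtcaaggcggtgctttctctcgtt
Egln1: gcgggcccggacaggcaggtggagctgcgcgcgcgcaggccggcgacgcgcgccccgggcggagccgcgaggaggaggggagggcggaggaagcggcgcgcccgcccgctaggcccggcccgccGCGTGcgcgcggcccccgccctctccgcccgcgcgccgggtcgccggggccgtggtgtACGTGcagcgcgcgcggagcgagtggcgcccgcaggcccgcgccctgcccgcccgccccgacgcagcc
The Hif1a promoter held 3 matches, of which 2 overlap as the palindrome CACGTG, and that palindrome was present in 6.0% of all promoters. In Egln3 the single match began 229 bases before the start, whereas the 2 matches of Egln1 began 126 and 68 bases before it. Bnip3 had 5 matches including the palindrome, both promoters of Egln2 and that of Arnt had at least 1, and Vhl and Hif1an had none. A match is a description of the letters and not evidence of binding.

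Among the 8 genes, the largest differences between cell types were those of Egln3 and Hif1a, which were highest in TFH cells, and of Egln1, which was lowest in TFR cells. In TFH compared to naïve cells, 4 of the 8 genes were called (Hif1a, Vhl, Egln2, and Egln3, limma with Benjamini-Hochberg adjusted p below 0.05), and all of them were higher. The share called among all genes was 46.5%, with 20.9% called higher. For TFR against Treg cells, Hif1a and Egln3 were called higher and Egln1 lower, and 39.6% of all genes were called, 18.7% higher and 20.9% lower. Between the follicular cell types, 4 genes were called, all lower in TFR than in TFH cells (Hif1a, Egln1, Egln2, and Egln3), against 22.1% of all genes called and 10.5% called lower. In Treg compared to naïve cells Egln3 was the 1 gene called, and it was higher, where 9.88% of all genes were called and 5.89% called higher. Comparisons that share a cell type use the same arrays and are not independent of each other.

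**Figure D1:**
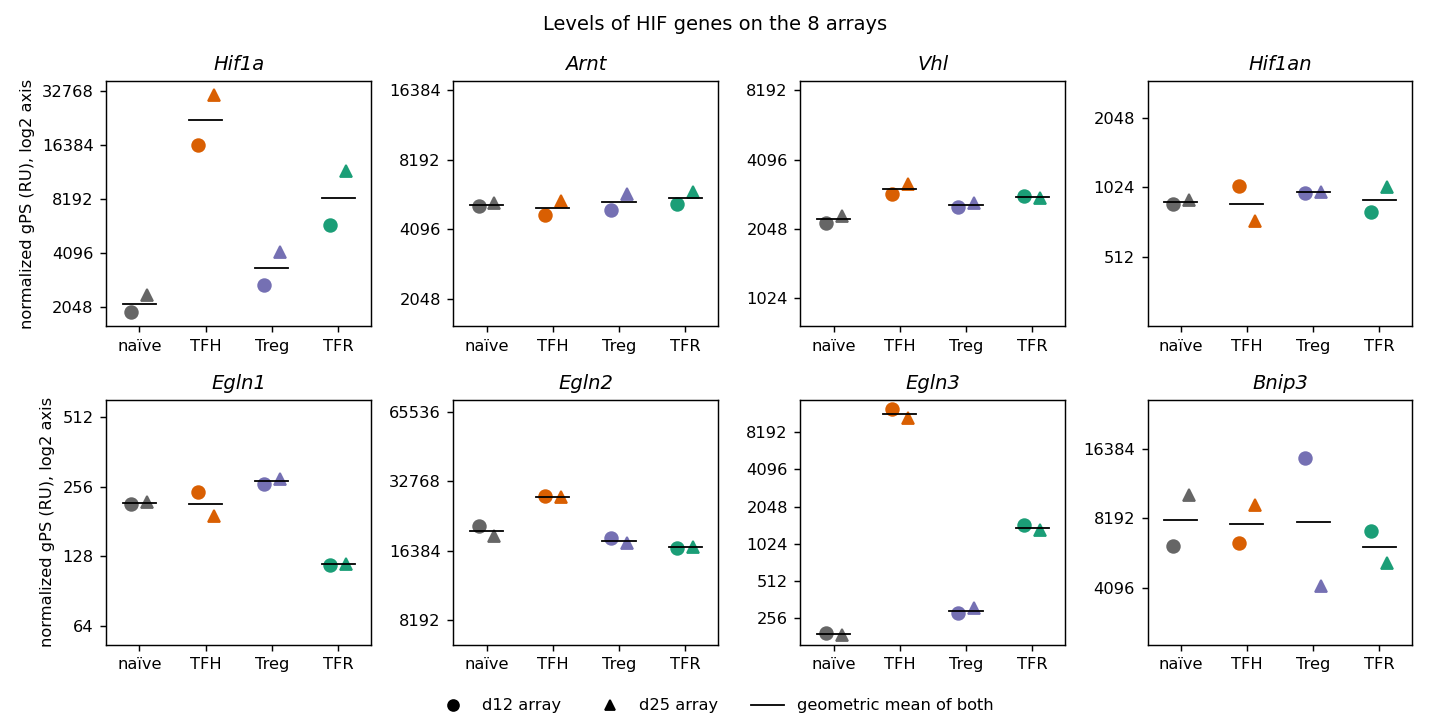
Levels of the 8 genes on the 8 arrays, in normalized gPS (RU) on a log2 axis whose range differs between panels, with circles for d12, triangles for d25, and lines for the geometric mean of both. Egln3 spans 186 to 12621 RU with no overlap between cell types, Hif1a is highest on both TFH arrays, Egln1 is lowest on both TFR arrays, and the 2 Treg arrays are the farthest apart for Bnip3.

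Hif1a encodes the oxygen-labile alpha subunit. Its level was 1932 and 2384 RU for naïve cells at d12 and d25, 16487 and 31150 RU for TFH, 2723 and 4175 RU for Treg, and 5882.9 and 11743 RU for TFR cells. Both TFH arrays were above all others and both TFR arrays above all naïve and Treg arrays, while the ranges of naïve and Treg cells did not overlap either. The difference between TFH and naïve cells was 3.40 ± 0.19 (log2, SE, adjusted p = 0.000383), a 10.6-fold higher level, with 3.09 from the d12 and 3.71 from the d25 arrays. TFR cells exceeded Treg cells by 1.30 ± 0.19 (adjusted p = 0.00775) and were below TFH cells by 1.45 on the log2 scale (2.73-fold, adjusted p = 0.00926). Hence the order was naïve, Treg, TFR, and TFH, in which naïve and Treg cells as neighbors were not called different (0.65 ± 0.19, 95% interval 0.16 to 1.15, adjusted p = 0.108). Without the day term of the model, the differences of TFR from Treg and from TFH cells kept their values but were not called (adjusted p = 0.0813 and 0.0913). Leaving out the TFR or the Treg array of d25 ended the first of these calls (1.11 and 1.24), and leaving out the TFH array of d25 or the TFR array of d12 the second (-1.31 and -1.25), which was also lost when dim probes were not filtered (adjusted p = 0.0628). A second probe, upstream of the first at chr12:75033965-75034024 in NCBI37 against chr12:75047269-75047329, was well above background on the TFH arrays alone, with 73 and 87 RU there and 20 to 34 RU elsewhere.

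Arnt encodes the beta subunit shared by all HIF alpha chains. It was at 5164 and 5306 RU for naïve, 4703 and 5449 RU for TFH, 4967 and 5791 RU for Treg, and 5273 and 5944 RU for TFR cells at d12 and d25, so that all cell types overlapped. No comparison was called, and the 95% intervals were -0.28 to 0.18 for TFH minus naïve and -0.17 to 0.30 for TFR minus Treg cells. On a second, dimmer probe of Arnt no comparison was called either, although its difference between Treg and naïve cells had the opposite sign (-0.43 ± 0.18, adjusted p = 0.219 over 20238 probes).

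The 3 prolyl hydroxylase genes moved differently. Egln3, the member of the family most strongly induced by HIF in many cell types, was at 193 and 186 RU for naïve cells and at 12621 and 10681 RU for TFH cells at d12 and d25. In Treg cells it was at 278 and 305 RU, and in TFR cells at 1436 and 1330 RU. No 2 cell types overlapped, and the days lay close together within each. The difference between TFH and naïve cells was 5.94 ± 0.12 (adjusted p = 8.21e-05), a 61.2-fold higher level and rank 70 from the top of 15764 genes. Its size depended on the setting, from 5.11 to 6.05. TFR cells exceeded Treg cells by 2.25 ± 0.12 (4.75-fold, adjusted p = 0.000663) and were 8.40-fold below TFH cells (-3.07 ± 0.12, adjusted p = 0.000557). All neighbors in the order naïve, Treg, TFR, and TFH were called, including the small difference between Treg and naïve cells (0.62 ± 0.12, adjusted p = 0.0388), which was no longer called under 9 of 18 alternative settings. A second probe (chr12:55281252-55281311 in NCBI37 against chr12:55280953-55281012) gave differences of 5.96 ± 0.20 for TFH minus naïve, 1.87 ± 0.20 for TFR minus Treg, and 1.00 ± 0.20 for Treg minus naïve cells, all called (adjusted p = 0.000162, 0.00353, and 0.0487 over 20238 probes). It was not well above background on the naïve array of d12.

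Egln1 encodes the hydroxylase regarded as the main oxygen sensor for HIF1A. In TFR compared to Treg cells, Egln1 was called in the direction opposite to Hif1a and Egln3. Its d12 and d25 levels were 117 and 119 RU for TFR cells, 263 and 277 RU for Treg, 243 and 192 RU for TFH, and 216 and 219 RU for naïve cells. Both TFR arrays were below all others, and the naïve and TFH arrays overlapped. TFR cells were lower than Treg cells by -1.19 ± 0.13 (2.29-fold, adjusted p = 0.00372) and lower than TFH cells by -0.87 ± 0.13 (1.83-fold, adjusted p = 0.0134). By contrast, TFH minus naïve cells gave -0.01 ± 0.13 with a 95% interval of -0.35 to 0.33 (adjusted p = 0.956), and Treg minus naïve cells 0.31 ± 0.13 (95% interval -0.03 to 0.65, adjusted p = 0.211). The call against Treg cells held in all 17 alternative settings, whereas the one against TFH cells was lost without either TFR array (-0.82 and -0.92) and when dim probes were not filtered (adjusted p = 0.0641). The size of these differences depended on the setting, from -1.28 to -0.64 for TFR minus Treg and from -1.06 to -0.46 for TFR minus TFH cells. For the Egln1 probe, the SD of its 3 to 4 spots on an array was between 0.07 and 0.23 on the log2 scale.

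Egln2 encodes the remaining prolyl hydroxylase. It was at 28165 and 27965 RU for TFH cells at d12 and d25, 20904 and 18974 RU for naïve, 18530 and 17697 RU for Treg, and 16857 and 17052 RU for TFR cells. The TFH arrays were above all others. TFH cells exceeded naïve cells by 0.49 ± 0.09 (1.41-fold, adjusted p = 0.00958) and TFR cells by 1.66-fold (-0.73 ± 0.09 for TFR minus TFH, adjusted p = 0.00696). The other neighbors in its order, TFR, Treg, and naïve, were not called different. The first of these calls was lost without the naïve array of d25 (0.43) and the second without either TFR array (-0.68 and -0.77). A second probe of Egln2 gave 0.41 ± 0.08 and -0.76 ± 0.08 for the same comparisons, both called (adjusted p = 0.0159 and 0.00609 over 20238 probes).

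Vhl encodes the substrate-binding subunit of the ligase that recognizes hydroxylated HIF alpha chains. Its levels at d12 and d25 were 2184 and 2332 RU for naïve, 2904 and 3194 RU for TFH, 2552 and 2649 RU for Treg, and 2856 and 2802 RU for TFR cells. TFH cells exceeded naïve cells by 0.43 ± 0.09 (1.35-fold, adjusted p = 0.0143), and this call was lost when either naïve array was left out, with differences of 0.41 and 0.45. No neighbors in the order naïve, Treg, TFR, and TFH were called different, and TFR minus Treg cells gave 0.12 ± 0.09 (95% interval -0.10 to 0.35).

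Hif1an, the gene of the asparaginyl hydroxylase, was between 733 and 1038 RU on all arrays, and both of these extremes were TFH arrays. It was not called in any comparison, with 95% intervals of -0.58 to 0.52 for TFH minus naïve and -0.66 to 0.44 for TFR minus Treg cells. These intervals are wide enough to include changes of the size found for Vhl and Egln2.

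**Figure D2:**
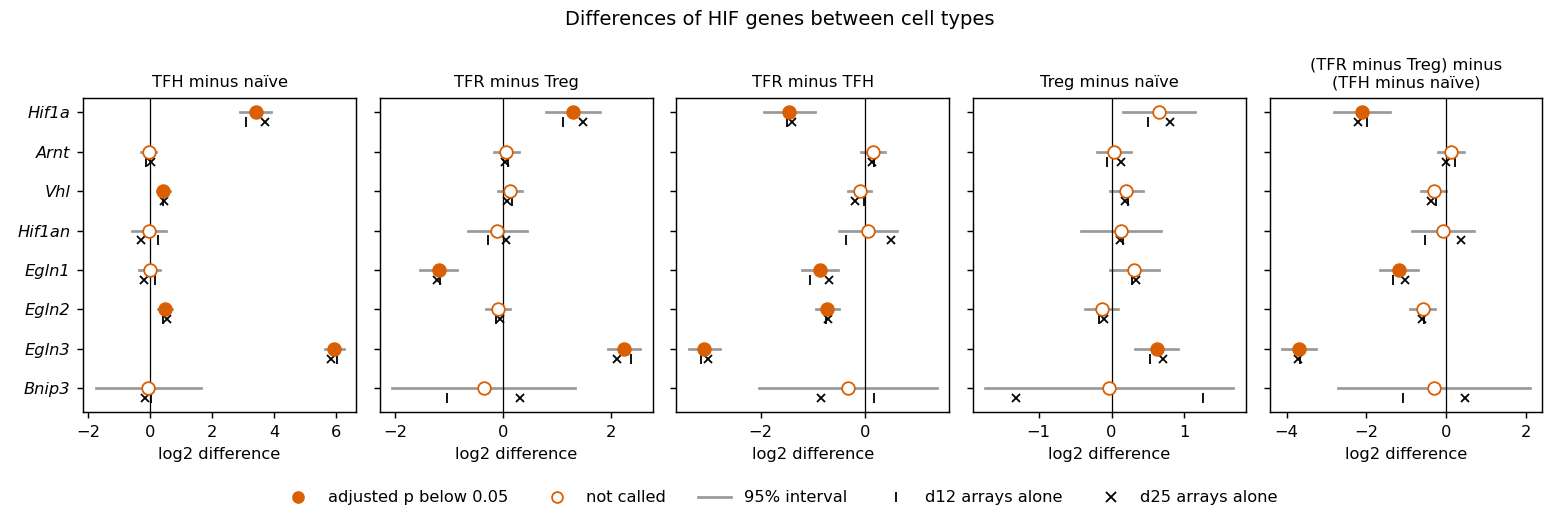
Log2 differences of the 8 genes in 5 comparisons, with 95% intervals as grey lines, values of the d12 and d25 arrays alone as bars and crosses, and filled circles where the adjusted p was below 0.05. The horizontal range differs between panels, the intervals of Bnip3 are the widest (-1.75 to 1.64 for TFH minus naïve cells), and Hif1a, Egln1, and Egln3 have filled circles left of zero in the panel on the right.

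Further, the follicular difference was compared between Foxp3+ cells (TFR minus Treg) and Foxp3- cells (TFH minus naïve). It was lower in Foxp3+ cells for 3 of the 8 genes, Hif1a, Egln1, and Egln3, whereas 8.49% of all genes were called in this comparison and 4.46% called lower. For Egln3 the difference of differences was -3.69 ± 0.16 (adjusted p = 0.00280), with -3.66 at d12 and -3.72 at d25 and rank 65 from the bottom of 15764 genes. For Hif1a it was -2.10 ± 0.27 (adjusted p = 0.0178), which was not called under 7 of 18 alternative settings, among them the model without the day term (adjusted p = 0.153). Both genes rose in follicular cells of either kind, 61.2-fold against 4.75-fold for Egln3 and 10.6-fold against 2.47-fold for Hif1a. Egln1, which fell in TFR cells and was not called in TFH cells, gave -1.18 ± 0.19 (adjusted p = 0.0284), and this call was lost under 8 of 17 alternative settings. Egln2 gave -0.59 ± 0.12 (95% interval -0.90 to -0.27, adjusted p = 0.0545), and was called with normexp background correction (adjusted p = 0.0311) or when only genes well above background on all arrays were tested (adjusted p = 0.0444).

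The day of collection was compared over all cell types. None of the 8 genes was called between d25 and d12 with limma, where 11 of 15764 genes (0.0698%) were called and 4545 had an unadjusted p below 0.05. Hif1a was the 1 gene of the 8 with an interval above zero (0.71 ± 0.14, 95% interval 0.36 to 1.06, adjusted p = 0.0765). It was higher at d25 in 4 of 4 cell types, by 0.30 in naïve, 0.92 in TFH, 0.62 in Treg, and 1.00 in TFR cells on the log2 scale. The difference was called when normexp background correction was used (0.70, adjusted p = 0.0450) or when only genes well above background on all arrays were tested (adjusted p = 0.0461), with limma in both cases. For Egln3, a known target of the factor, d25 minus d12 was -0.07 ± 0.08 (95% interval -0.28 to 0.14, adjusted p = 0.598). All d12 arrays were on slide 1 and the d25 arrays on slides 2 and 3, so that day and slide cannot be told apart. At d25, moreover, the naïve and TFH arrays shared slide 2 and the Treg and TFR arrays slide 3, which separates Foxp3+ from Foxp3- cells. On slide 1 alone, which held all cell types of d12, TFR minus TFH cells gave -1.49 for Hif1a, -1.05 for Egln1, -0.74 for Egln2, and -3.14 for Egln3, and Treg minus naïve cells gave 0.52 for Egln3. With slide in place of day, these 4 genes were still called in TFR versus TFH cells (adjusted p = 0.0475, 0.0472, 0.0448, and 0.00833), whereas Egln3 was not called in Treg versus naïve cells (0.54, adjusted p = 0.176).

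Bnip3 encodes a mitochondrial receptor for mitophagy that HIF activates in hypoxic cells. Its brightest probe (chr7:146082760-146082819 in NCBI37, minus strand) was at 6239 and 10384 RU for naïve, 6420 and 9349 RU for TFH, 14903 and 4179 RU for Treg, and 7236 and 5225 RU for TFR cells at d12 and d25. The 2 Treg arrays gave the highest and the lowest level of all, a change of -1.83 on the log2 scale, whereas the 3 to 4 spots of the probe on an array had SDs of 0.04 to 0.27. No comparison was called with this probe, and the 95% interval of TFH minus naïve cells reached from -1.75 to 1.64.

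A second Bnip3 probe (chr7:146082640-146082699) behaved differently. It was at 3513 and 3952 RU for TFH cells, 1943 and 2655 RU for TFR, 1621 and 1760 RU for Treg, and 1603 and 1671 RU for naïve cells at d12 and d25. Both TFH arrays were above all others, both TFR arrays followed, and Treg and naïve arrays overlapped. With this probe TFH cells exceeded naïve cells by 1.19 ± 0.13 (adjusted p = 0.00225 over 20238 probes), and TFR cells were below TFH cells (-0.71 ± 0.13, adjusted p = 0.0209). TFR minus Treg cells gave 0.43 ± 0.13 (95% interval 0.10 to 0.75, adjusted p = 0.0512). The dimmest probe (chr7:146082536-146082595) was well above background on 4 arrays, neither of them naïve, and ranged from 46 to 229 RU. It gave 1.14 ± 0.65 for TFH minus naïve, -0.97 ± 0.65 for TFR minus TFH, and -0.02 ± 0.65 for TFR minus Treg cells, none of them called. The probes of Bnip3 thus disagreed, and its differences depend on the probe that is read.

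**Figure D3:**
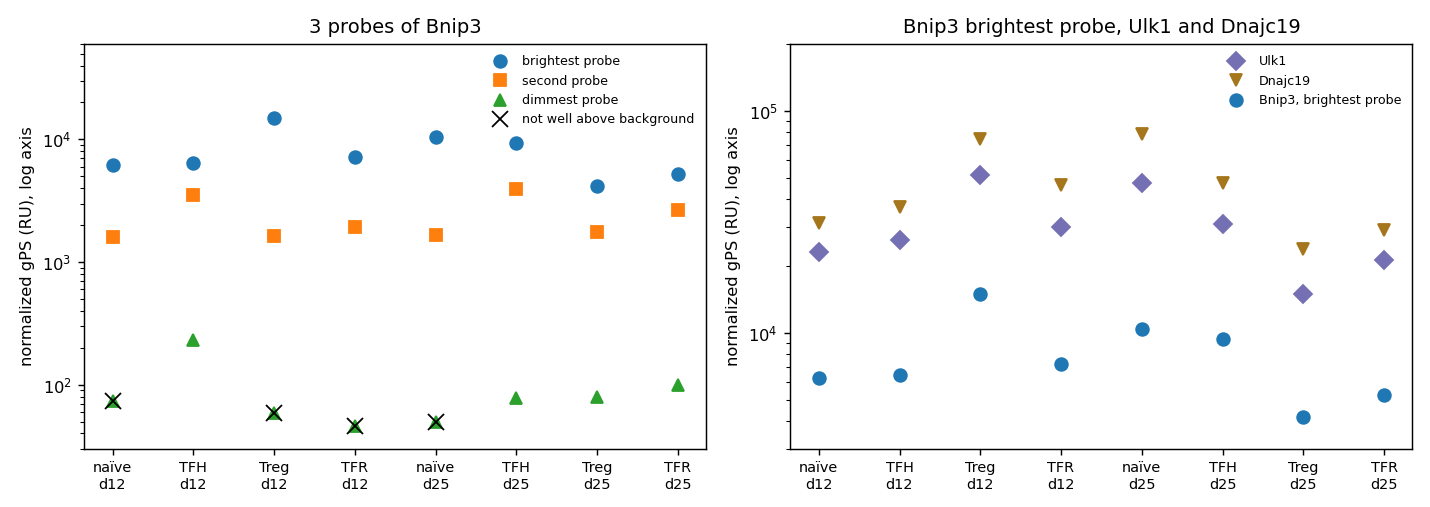
Left, the 3 probes of Bnip3 on the 8 arrays in normalized gPS (RU, log axis), with crosses where a probe was not well above background; the second probe is highest on both TFH arrays (3513 and 3952 RU), and the brightest probe on the Treg array of d12 (14903 RU). Right, the brightest probe beside the probes of Ulk1 and Dnajc19 on the same kind of axis, all of them above their other d12 arrays on the Treg array of d12 and lowest on the Treg array of d25.

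The genes whose log2 levels resembled these patterns most over the 8 arrays were taken from 13298 other genes well above background on all arrays, as a description. The brightest Bnip3 probe was followed most closely by Ulk1 (r = 0.965), a probe with no gene symbol in the files (r = 0.946), and Dnajc19 (r = 0.945). Ulk1 was at 51395 RU for Treg cells at d12 and 15015 RU at d25, and Dnajc19 at 74904 and 23711 RU. The genes most like Egln3 were Ext1 (r = 0.998), Lnx2 and Dus2 (both r = 0.995), and those most like Hif1a were Pdia6, Serinc5 (both r = 0.991), and Apobec3 (r = 0.990). The arrays share cell types and days, so that many genes follow the same steps. Between Hif1a and Egln3 themselves r was 0.948, and between Hif1a and Vhl 0.923.

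Other genes of the pathway were then examined. Of 17 further components, 5 were called higher and 2 called lower when TFH were set against naïve cells (median difference 0.20, compared to -0.07 over all genes), where 20.9% of all genes were called higher and 25.6% lower. Cited2 and Cited4, whose products compete with HIF for the coactivators CBP and p300, were higher by 1.36 ± 0.16 (adjusted p = 0.00299) and 1.59 ± 0.23 (adjusted p = 0.00579). Siah1a, encoding a ligase that degrades prolyl hydroxylases, was lower by -1.13 ± 0.11 (adjusted p = 0.00146). The related gene Siah2 was instead called higher, at 951 and 1384 RU for TFH against 592 and 867 RU for naïve cells. The other component called lower was Epas1, encoding the HIF2 alpha subunit, which was named after its values were seen and was at 13521 and 15039 RU for TFH against 19219 and 22247 RU for naïve cells (-0.54 ± 0.11, adjusted p = 0.0157). For TFR against Treg cells 5 were called higher and 1 lower, against 18.7% and 20.9% of all genes, among them Cited2 (0.72 ± 0.16, adjusted p = 0.0245), Hif3a, the gene of a further alpha subunit (0.72 ± 0.17, adjusted p = 0.0289), and Siah1a (-1.29 ± 0.11, adjusted p = 0.00188). Among the 5 called higher was also Siah2, at 918 and 1196 RU for TFR against 620 and 930 RU for Treg cells. So was Siah1b, at 803 and 904 RU for TFR against 577 and 621 RU for Treg cells. Siah2 and Siah1b were named after their values were seen. Arnt2, a homolog of Arnt, was not well above background in naïve or Treg cells and was at least 5.50-fold higher in TFH and at least 2.59-fold higher in TFR cells. This bound sets the brighter mean against, per array, the higher of the own signal and the lowest signal well above background. Without Arnt2, 4 of 16 components were called higher in TFH than in naïve cells, and 4 of 16 in TFR than in Treg cells.

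Among 20 glycolysis genes known as HIF targets, 13 were called higher and 3 called lower when TFH were set against naïve cells (median 0.81), and 12 higher and 3 lower when TFR were set against Treg cells (median 0.50, compared to -0.08 over all genes). Called higher among all genes were 20.9% and 18.7%, respectively, and called lower 25.6% and 20.9%. Slc16a3, the lactate exporter gene, rose by 3.14 ± 0.11 and 2.64 ± 0.11 (adjusted p = 0.000177 and 0.000508) and the aldolase gene Aldoc by 3.54 ± 0.24 and 2.54 ± 0.24 (adjusted p = 0.000626 and 0.00263). Pdk1, whose product keeps pyruvate out of the mitochondrial cycle, changed in the opposite direction. It was at 8277 and 8913 RU for naïve and 2797 and 2048 RU for TFH cells, and at 4322 and 5332 RU for Treg and 1568 and 1282 RU for TFR cells (-1.84 ± 0.21 and -1.76 ± 0.21, adjusted p = 0.00257 and 0.00438). In the comparison of Foxp3+ with Foxp3- cells, Pfkp was the 1 gene of this list called, and it was lower. Among all genes 8.49% were called there and 4.46% called lower.

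The 24 other target genes comprised 21 tested ones, since Vegfa, P4ha2, and Mxi1 were not. Of these, 9 were called higher and 4 called lower when TFH were set against naïve cells (median 0.41), and 10 higher and 1 lower when TFR were set against Treg cells (median 0.59). The shares of all genes called higher and lower were 20.9% and 25.6% in the first and 18.7% and 20.9% in the second comparison. Car9, Stc2, and Ak4 were not well above background in 1 or both of the cell types compared, and the other 18 genes gave 7 higher and 3 lower, and 7 higher and 1 lower, respectively. Over the 16 genes well above background on all 8 arrays, the medians were 0.41 for TFH minus naïve and 0.225 for TFR minus Treg cells. The median for TFR minus Treg cells ranged from 0.21 to 0.60 over the alternative settings. Car9 passed the filter through TFR cells alone (120 and 126 RU, compared to 27 to 62 RU on the other arrays), so that its call as lower in TFH than in naïve cells sets signals below background against each other. Hmox1, encoding heme oxygenase, rose by 4.45 ± 0.13 and 2.84 ± 0.13 (adjusted p = 0.000121 and 0.000558), and Bhlhe40, encoding a transcriptional repressor, by 4.0 ± 0.34 and 3.11 ± 0.34 (adjusted p = 0.00113 and 0.00362). Ndrg1, a stress-response gene, was at 1564 and 1976 RU for naïve and at 165 and 165 RU for TFH cells, compared to 1753 and 2173 RU for Treg and 1205 and 1413 RU for TFR cells. It thus fell in TFH cells (-3.41 ± 0.11, adjusted p = 0.000159) and, to a lesser extent, in TFR cells (-0.58 ± 0.11, adjusted p = 0.0170). In the comparison of Foxp3+ with Foxp3- cells, Hmox1 was called lower and Ndrg1 higher among the 18 genes, while 4.46% of all genes were called lower and 4.03% higher. Stc2 was not well above background in naïve and Treg cells and was at least 43.9-fold higher in TFH and at least 7.43-fold higher in TFR cells. Of the proliferation markers, 8 of 8 were called higher in both comparisons, against 20.9% and 18.7% of all genes. Their summed level was 3558 to 4489 RU for naïve, 22910 to 31951 RU for TFH, 9210 to 9890 RU for Treg, and 54105 to 75813 RU for TFR cells. In TFR versus TFH cells 7 of 8 were called higher (median 1.28), where 22.1% of all genes were called. The medians of the glycolysis and other targets were -0.22 and -0.13 there. The part of the proliferation markers in the differences was not tested.

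**Figure D4:**
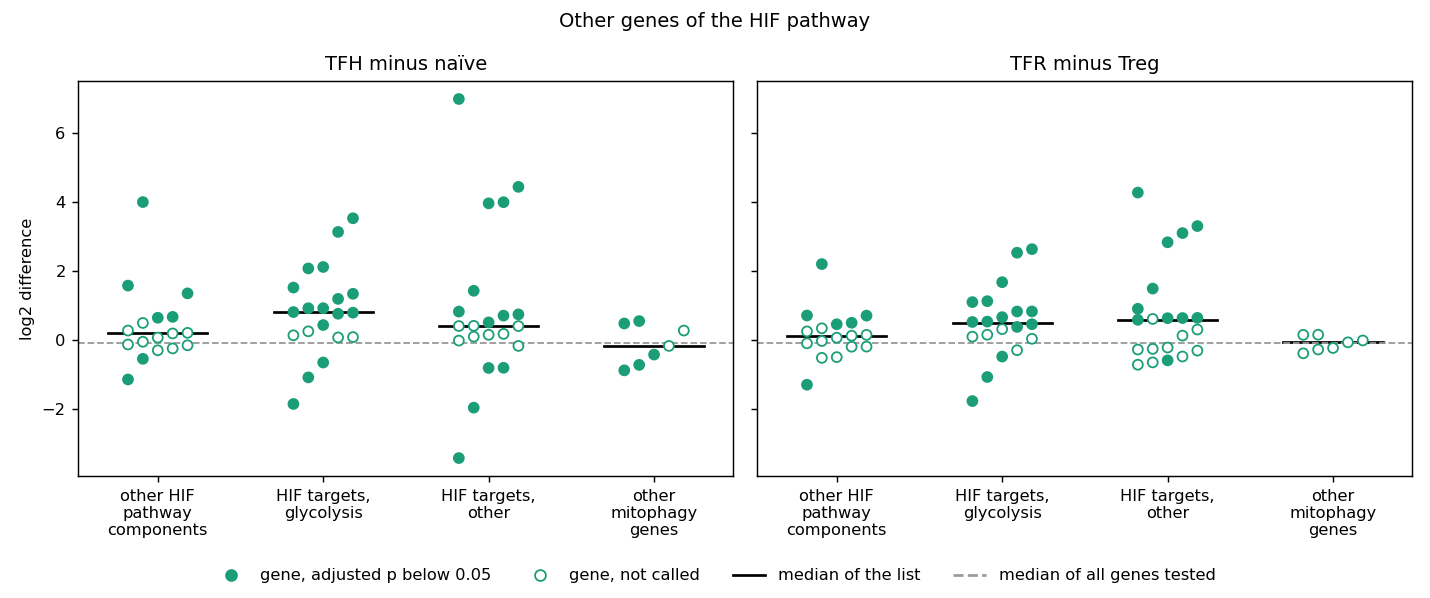
Log2 differences of the genes in 4 lists, TFH minus naïve cells on the left and TFR minus Treg cells on the right, with filled circles for genes called at an adjusted p below 0.05, black lines for list medians, and a dashed line for the median of all genes. The glycolysis list has its median at 0.81 on the left and 0.50 on the right, no mitophagy gene is called on the right, and the 4 genes not well above background in naïve and Treg cells (Stc2, Ak4, Arnt2, and Car9, the last also not in TFH cells) are drawn at their fitted values.

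Since Bnip3 acts in mitophagy, 7 other genes of that process were listed, of which Bnip3l and Fkbp8 also belong to the lists above. In TFH compared to naïve cells, Pink1 (0.56 ± 0.10, adjusted p = 0.00932) and Fundc1 were called higher, and Bcl2l13 (-0.87 ± 0.11, adjusted p = 0.00318), Park2 (-0.71 ± 0.21, adjusted p = 0.0440), and Phb2 lower, where 46.5% of all genes were called. For TFR against Treg cells, where 39.6% of all genes were called, none of the 7 was called with limma, and 0 had an unadjusted p below 0.05.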

How the data were processed

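RNA of the 4 sorted cell types was measured on 8 one-color Agilent arrays, each with 157716 spots for 39429 probes. The authors extracted the spots with Agilent Feature Extraction 10.7.3.1 and deposited background-corrected spot intensities (gPS) and a table of normalized intensities with a floor of 20. The genome build given in the file headers is NCBI37 (mm9). The steps stated in the methods were run again from the spots. Spots were excluded by software flags, beyond 1.42 times the interquartile range of their replicates, or at a pixel coefficient of variation above 0.5, after which 86.5% to 89.2% of spots remained. Probe values were the geometric mean of their spots, normalized by quantiles, scaled to a 75th percentile of 1500, floored at 20 and log2 transformed. They correlated with the authors' table with r = 0.999 on each array. The levels were not identical, since the brightest percent of probes lay 0.51 above that table on the log2 scale (median, each array). Mean log2 levels were 14.31 against 14.10 in the table for Egln2 and 7.62 against 7.79 for Egln1.

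For each gene the brightest probe on average was used, and the gene was tested if this probe was well above background (more than 50% of its spots) in both samples of 1 or more cell types. Differences were fitted with limma 3.58.1 in R 4.3.3 (lmFit and eBayes) in an additive model of cell type and day, leaving 3 residual degrees of freedom, with Benjamini-Hochberg adjustment over 15764 genes. The methods name one-way ANOVA, and the model without the day term, which has cell type as its single factor, was run as an alternative. The labels give the day that pairs the arrays, and deviations of same-day arrays from their cell type means correlated with r of 0.309 to 0.601. Each further probe of a gene was fitted among 20238 probes. Genes of the other pathway lists were named from the 3 called genes with the largest differences in TFH versus naïve and in TFR versus Treg cells. Only genes well above background on both sides were considered. Of these, Tpi1 (2.12, TFH minus naïve) and Fam162a (0.91, TFR minus Treg) were not described above. Further genes and values outside this choice were also given, among them Pfkp, Fundc1, and Phb2. Likeness was Pearson's r over 8 arrays. Promoters were searched with Python 3.11.15. The script for the fits was tested on simulated data. The 8 genes, the lists, and the tests were chosen with earlier results of these data known. Alternatives were other scaling and background correction, the authors' table, other filters and probes, slide in place of day, no day term, and each array left out. The number of arrays limits the precision.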

Additional observations from a re-analysis of the deposited data

Results flagged for a closer look

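The follicular difference in Foxp3+ cells (TFR minus Treg) differed from that in Foxp3- cells (TFH minus naïve) for 3 of the 8 genes by a test of the difference itself (limma, Benjamini-Hochberg adjusted). Of all genes, 8.49% were called in this comparison and 4.46% called lower. The difference of differences was -2.0987 for Hif1a (adjusted p = 0.0178), -1.1825 for Egln1 (adjusted p = 0.0284), and -3.6885 for Egln3 (adjusted p = 0.0028). The call was lost under 7 of 18 alternative settings for Hif1a and under 8 of 17 for Egln1, whereas that of Egln3 was kept in all 18. In Hif1a and Egln3 the rise was smaller in Foxp3+ cells, whereas in Egln1 a decrease was found in TFR cells with no called change in TFH cells. With 2 arrays per cell type, no array could be examined as an outlier within its group.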

How the results depend on the processing

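Of 15 called differences of the 8 genes, none changed sign in 266 repeats under alternative settings, of which 226 kept the call and 40 lost it. In part of these repeats the sign could not change, because the estimate stays the same by construction. This holds without the day term, with another filter on probes, or without an array of a cell type outside the comparison. With slide in place of day it also holds for TFH versus naïve, TFR versus Treg, and Foxp3+ versus Foxp3-. Among the 33 differences not called, 50 of 570 repeats changed sign and 7 were called, among them Bnip3 in TFH versus naïve cells by the mean over all probes and with the second probe, both with changed sign. By the mean over all probes of a gene, Bnip3 gave 0.76 (TFH minus naïve), 0.016 (TFR minus Treg), and 0.066 (Treg minus naïve), Arnt -0.13 (Treg minus naïve), and Egln3 0.076 (d25 minus d12). With second probes, Bnip3 gave 1.19, 0.43 and 0.046 in these comparisons and, for d25 minus d12, 0.20, Arnt gave -0.10 (TFR minus TFH) and -0.43 (Treg minus naïve), and Egln3 0.22 (d25 minus d12). With its dimmest probe, Bnip3 gave 1.14 (TFH minus naïve) and 0.18 (Treg minus naïve). With slide in place of day, Bnip3 gave 0.56 (TFR minus TFH) and 0.87 (Treg minus naïve), Hif1an -0.15 and -0.070, and Arnt -0.0007 (Treg minus naïve). With scaling alone, Egln1 gave 0.083 (TFH minus naïve) and Arnt -0.023 (Treg minus naïve), normexp gave 0.0083 for Egln1, and keeping all spots 0.0072 for Hif1an (both TFH minus naïve). Leaving out 1 array, Bnip3 ranged from -0.72 to 0.61 (TFH minus naïve), -1.41 to 0.69 (TFR minus Treg), -0.87 to 0.20 (TFR minus TFH), -1.08 to 1.02 (Treg minus naïve), -0.59 to 0.27 (d25 minus d12), and -1.36 to 0.75 (Foxp3+ minus Foxp3-). Arnt ranged from -0.13 to 0.033 (TFH minus naïve) and -0.0465 to 0.12 (Treg minus naïve), Egln1 from -0.20 to 0.18 (TFH minus naïve) and -0.10 to 0.04 (d25 minus d12), and Hif1an from -0.35 to 0.29, -0.36 to 0.14, -0.27 to 0.38, -0.14 to 0.14, and -0.40 to 0.24 (TFH minus naïve, TFR minus Treg, TFR minus TFH, d25 minus d12, and Foxp3+ minus Foxp3-). The causes were not tested.

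Of the 8 genes, those called when leaving out 1 array ranged from 2 to 4 (TFH versus naïve, 4 with all arrays), 2 to 3 (TFR versus Treg), 1 to 4 (TFR versus TFH), 0 to 1 (Treg versus naïve), and 1 to 3 (Foxp3+ versus Foxp3-). Without the filter on dim probes 2 genes were called in TFR versus TFH, 1 in Foxp3+ versus Foxp3-, and 0 in Treg versus naïve cells, and 0 also with normexp or slide. In Foxp3+ versus Foxp3- cells 4 were called with normexp or with genes well above background on all arrays, the addition being Egln2. For d25 versus d12, 1 was called with normexp or with genes well above background on all arrays. With no replicate block, that is without the day that pairs the arrays, 4, 2, 3, 1, and 2 of the 8 genes were called in the 5 comparisons of cell types, and 2213, 1000, and 807 of all genes in TFR versus TFH, Treg versus naïve, and Foxp3+ versus Foxp3-, against 3486, 1557, and 1339. With slide in place of day these were 1349, 523, and 691. Over all alternatives these counts ranged from 942 to 3916, 416 to 1865, and 292 to 1620, TFH versus naïve from 4309 to 7739 (7332), TFR versus Treg from 2494 to 6731 (6249), and d25 versus d12 from 0 to 855 (11). Of the 20 glycolysis genes, 12 to 13 were called higher in TFH and 7 to 13 in TFR cells, with 7 when any Treg or TFR array was left out. Of the 17 components, 0 to 6 were called higher in TFR cells, with 0 without the TFR array of d12 and 1 without any other Treg or TFR array. Of the 21 other targets 6 to 10 were called higher in TFH cells and 5 to 10 in TFR cells, with 6 without the naïve array of d12 and 5 without the Treg or TFR array of d25. The other targets called lower in TFH cells numbered 1 to 4, with 1 without the naïve array of d25. Of the 7 mitophagy genes, 0 to 3 were called higher and 1 to 3 lower in TFH cells, with 0 higher and 1 lower without the naïve array of d25.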
